A study of Mus musculus with 9 samples.

Results

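The genes described here are 9 genes of the T cell receptor complex and its coreceptors: Cd3d, Cd3e, Cd3g, Cd4, Cd8a, Cd8b1, Cd2, Cd5 and Lck. They were taken by name from a table of 21898 mouse genes, and all 9 were present. The material was liver RNA of C57BL/6 mice, sequenced in 9 libraries, 3 in each of 3 groups to which mice had been assigned at random. The normal group was labelled WT and was given saline. The model group had metabolic-associated fatty liver disease, MAFLD, brought on by an MCD diet, a feed lacking methionine and choline that makes the liver store fat. The TA group received that diet together with tormentic acid (TA), a triterpenoid made by plants, at what the labels call a high dose. Saline is recorded for the normal group alone, so diet and saline cannot be told apart there. The sources used here give no ages, sex, amounts or times. No label says that each library came from its own mouse, so the p-values measure the spread between libraries, which may be technical in part.

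A T cell recognises a peptide held by an MHC molecule through its antigen receptor, whose pair of variable chains has no signalling part of its own. The CD3 chains (gamma, delta and epsilon, encoded by Cd3g, Cd3d and Cd3e) and the zeta chain of Cd247 carry the signal inward. A coreceptor binds the same MHC molecule and brings the kinase Lck to the complex: CD4 on helper and regulatory T cells for MHC class II, CD8 on cytotoxic T cells for MHC class I. The liver holds many CD8 T cells and NK cells among its resident lymphocytes. In mice some dendritic cells carry CD8 alpha chains without the beta chain, and some carry CD4.

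Depth was 13710002 to 16475794 counts per library. A level is given below as CPM, a count scaled to library size with TMM factors (a correction for a few abundant genes taking up counts). These factors averaged 0.833 ± 0.00888 (SD, n = 3) for normal, 1.34 ± 0.137 for model and 0.900 ± 0.102 for TA libraries. With library totals in their place, the median log2 fold change of all genes became 0.69 for model against normal and -0.59 for TA against model, where TMM put it at 0.005 and -0.014. Mitochondrial genes took 6.45% to 7.80% of the counts of normal libraries, 7.36% to 11.6% of those of model libraries and 4.92% to 15.4% of those of TA libraries. All 9 genes passed the filter on low counts. Each also reached its cutoff of 0.623 CPM in at least 3 libraries outside the model group, so none of them was tested only because it was high there. Those libraries include TA libraries, which were on the same diet. Within the normal group Cd3g, Cd4 and Lck reached the cutoff in all 3 libraries and Cd8a and Cd2 in 2. Cd3d, Cd3e, Cd8b1 and Cd5 reached it in 1 normal library each. The 9 genes summed to only 98 to 198 raw counts in a normal library, 556 to 845 in a model library and 268 to 420 in a TA library, and counting error is large for single genes in the normal group.

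On the deficient diet 8 of the 9 genes rose, by 2.59-fold to 9.28-fold, and Cd4 did not pass the test. The coreceptor genes of cytotoxic T cells, Cd8b1 and Cd8a, had the highest fold changes, 9.28 and 7.73. The CD3 genes rose by 2.97-fold to 4.52-fold, Cd5 by 4.04-fold, Lck by 3.12-fold and Cd2 by 2.59-fold. In the same comparison 25.4% of all 13200 genes tested were called higher and 22.6% lower, meaning an adjusted p under 0.05 in the edgeR quasi-likelihood test. The median log2 fold change was 1.64 over the 9 genes, against 0.005 over all genes. Every model library was above every normal library for those 8 genes, an order that 31.3% of all genes showed. Because whole liver was sequenced, more cells carrying these RNAs, T cells or others, and more of these RNAs per cell cannot be told apart.

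**Figure D1:**
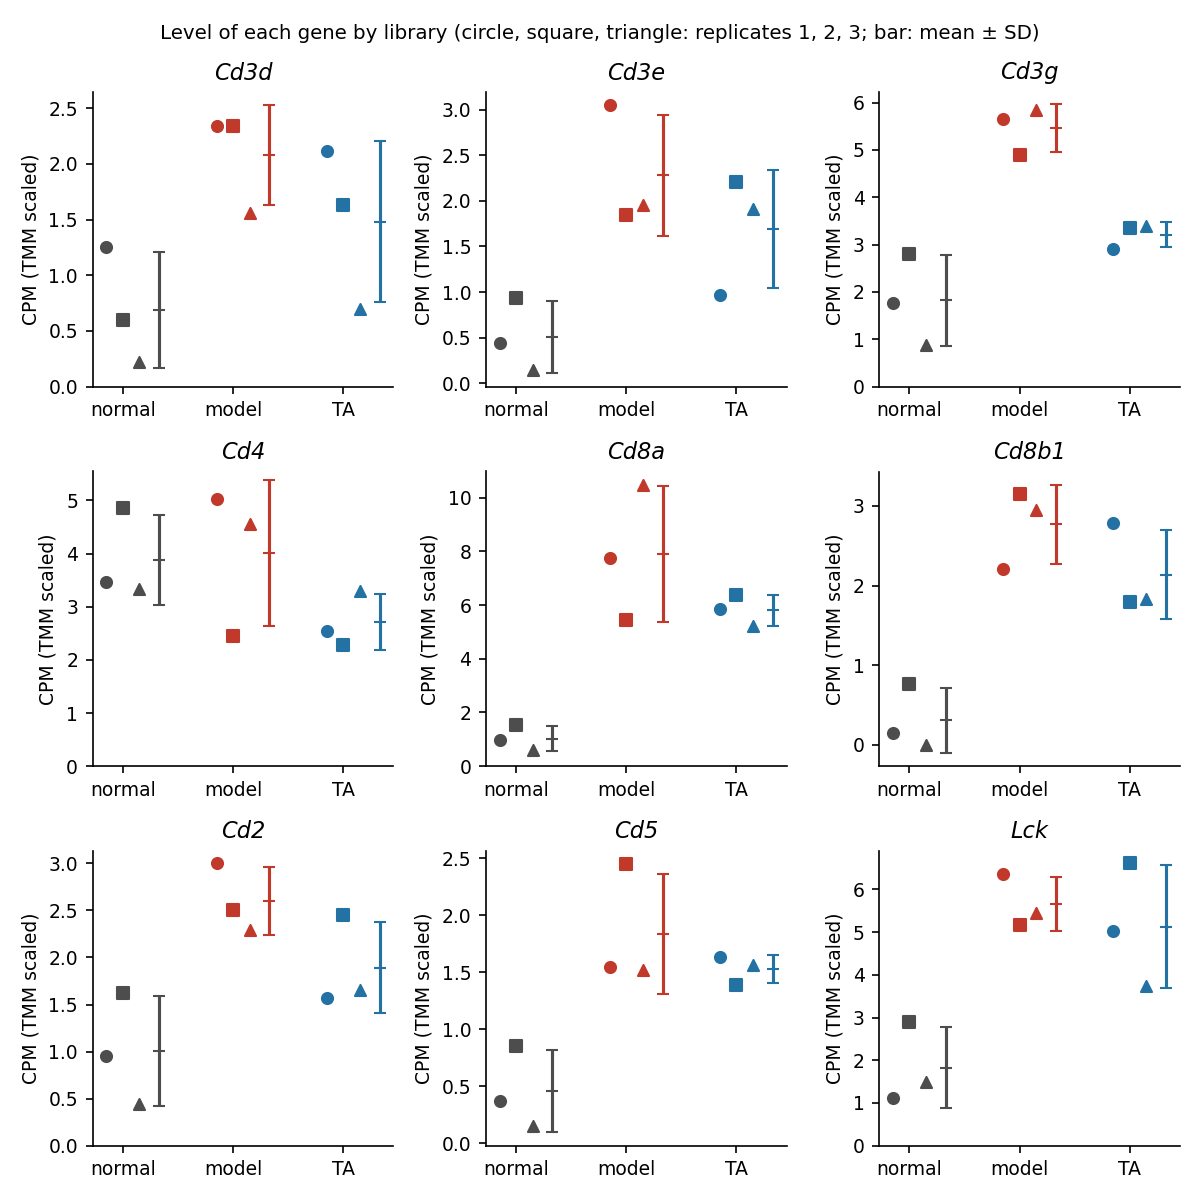
Level of each of the 9 genes in CPM (TMM-scaled counts, linear axis) in every library, by group, with the mean and SD (n = 3) at the right of each group. For 8 genes the 3 model libraries lie above the 3 normal libraries, while for Cd4 the model libraries run from 2.45 to 5.03 CPM and span the normal ones.

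Among the CD3 chains, Cd3g had the highest mean per length in each group, though its libraries overlapped those of Cd3d in the normal and TA groups. It had 24, 33 and 12 counts in the normal libraries, 128, 90 and 135 in the model libraries and 48, 41 and 39 in the TA libraries. As levels these were 1.77, 2.81 and 0.889 CPM, then 5.65, 4.89 and 5.85 CPM, then 2.90, 3.35 and 3.39 CPM. The model libraries were thus all high, the normal libraries all low, and the TA libraries lay between them with no overlap on either side. The diet raised Cd3g by 1.59 ± 0.37 on the log2 scale (SE, edgeR adjusted p = 0.00423).

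Cd3e encodes the chain that pairs with both of the other CD3 chains. Its level was 0.442, 0.937 and 0.148 CPM in the normal libraries, 3.05, 1.85 and 1.95 CPM in the model libraries and 0.967, 2.21 and 1.91 CPM in the TA libraries. The model libraries were all above the normal ones, and TA replicate 1 was close to normal replicate 2. The log2 change on the diet was 2.18 ± 0.59 (edgeR adjusted p = 0.00994), and it became 2.91 without normal replicate 2. Its exons share bases with an antisense gene, Gm48719, and since the use of strand in counting is not given in the sources used here, reads of the pair may be mixed in its count.

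Cd3d had 0.690 ± 0.522 CPM in the normal group (SD, n = 3), with single libraries at 1.25, 0.596 and 0.222. The model libraries stood at 2.34, 2.34 and 1.56 CPM and the TA libraries at 2.11, 1.63 and 0.696 CPM. The model and normal libraries did not overlap, but TA replicate 3 fell inside the normal range. The rise of 1.57 ± 0.59 (log2) had an edgeR adjusted p of 0.0447. This call did not hold without normal replicate 2 or 3, without any 1 of the 3 model replicates or without TA replicate 2, where the adjusted p reached 0.143, and the log2 change became 2.34 without normal replicate 1.

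Cd8a encodes the alpha chain of CD8, which forms a homodimer or pairs with the beta chain. Its counts were 13, 18 and 8 in the normal libraries, 176, 100 and 242 in the model libraries and 97, 78 and 60 in the TA libraries. In CPM the libraries stood at 0.958, 1.53 and 0.593, then at 7.77, 5.43 and 10.5, then at 5.86, 6.37 and 5.22. Every library on the diet, with or without tormentic acid, had more than 3 times the level of the highest normal library. The log2 change was 2.95 ± 0.37 (edgeR adjusted p = 9.62e-05), a 7.73-fold rise with a 95% interval of 4.40 to 13.6, and the call held in each of the 17 other ways of processing that were tried.

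Cd8b1 encodes the beta chain, which in mice marks cytotoxic T cells more narrowly than the alpha chain. It had 2, 9 and 0 counts in the normal libraries, 50, 58 and 68 in the model libraries and 46, 22 and 21 in the TA libraries. The 0 in normal replicate 3 allows up to 0.222 CPM (3 counts, counting error only), and the 11 counts of the whole normal group have an exact 95% Poisson interval of 5.49 to 19.7. Model libraries lay at 2.21, 3.15 and 2.95 CPM and TA libraries at 2.78, 1.80 and 1.83 CPM, all above the highest normal value of 0.767. The log2 change on the diet was 3.21 ± 0.73 (edgeR adjusted p = 0.00378). It was 5.08 without normal replicate 2 and 2.61 without normal replicate 3, so its size rests on the few normal counts.

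Cd4 was the exception. Its level was 3.46, 4.86 and 3.33 CPM in the normal libraries, 5.03, 2.45 and 4.55 CPM in the model libraries and 2.54, 2.29 and 3.30 CPM in the TA libraries. Model replicate 2 was below and model replicate 1 above all normal libraries. The log2 difference of model against normal was 0.05 with a 95% interval of -0.68 to 0.78 (edgeR adjusted p = 0.907). That interval lies below those of Cd8a (2.14 to 3.76) and Cd8b1 (1.63 to 4.80), and still allows a change of up to 1.72-fold upward or down to 0.626-fold.

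Cd2 and Cd5 encode surface molecules of T cells, the first an adhesion receptor that helps activation and the second a brake on receptor signalling. Cd2 stood at 0.958, 1.62 and 0.445 CPM in the normal libraries, 3.0, 2.5 and 2.3 CPM in the model libraries and 1.57, 2.45 and 1.65 CPM in the TA libraries. Its rise on the diet was 1.38 ± 0.46 (log2, edgeR adjusted p = 0.0273), and the call was lost without normal replicate 1, normal replicate 3 or model replicate 1, with an adjusted p of up to 0.0935. Cd5 stood at 0.368, 0.852 and 0.148 CPM, then at 1.55, 2.45 and 1.52 CPM, then at 1.63, 1.39 and 1.57 CPM. The model and TA libraries of Cd5 were all above the normal ones, with a log2 rise on the diet of 2.02 ± 0.55 (edgeR adjusted p = 0.0106) that became 2.78 without normal replicate 2.

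Lck encodes the kinase that CD4 and CD8 hold at the membrane and that phosphorylates the CD3 chains. It had 15, 34 and 20 counts in the normal libraries, 144, 95 and 126 in the model libraries and 83, 81 and 43 in the TA libraries. In CPM these were 1.11, 2.90 and 1.48, then 6.36, 5.16 and 5.46, then 5.02, 6.61 and 3.74. All 6 libraries on the diet were above the normal ones, and the TA libraries covered the whole model range and more on both sides. The log2 change of model against normal was 1.64 ± 0.37 (edgeR adjusted p = 0.00365).

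The normal libraries were unlike one another in these genes. Normal replicate 2 was the highest normal library for 8 of the 9 genes and normal replicate 3 the lowest for 8. The 9 genes summed to 10.5, 16.9 and 7.26 CPM in normal replicates 1 to 3, against 37.0, 30.2 and 36.6 CPM in the model libraries and 25.4, 28.1 and 23.3 CPM in the TA libraries. Normal replicate 3 also had the lowest sum of 11 B and plasma cell markers, 10.4 CPM, against 59.1 and 53.1 CPM in the other normal libraries. The part of lymphocyte content in that spread was not tested. The coefficient of variation within the normal group ran from 21.7% for Cd4 to 133.5% for Cd8b1, and within the model group from 9.25% for Cd3g to 34.3% for Cd4.

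**Figure D2:**
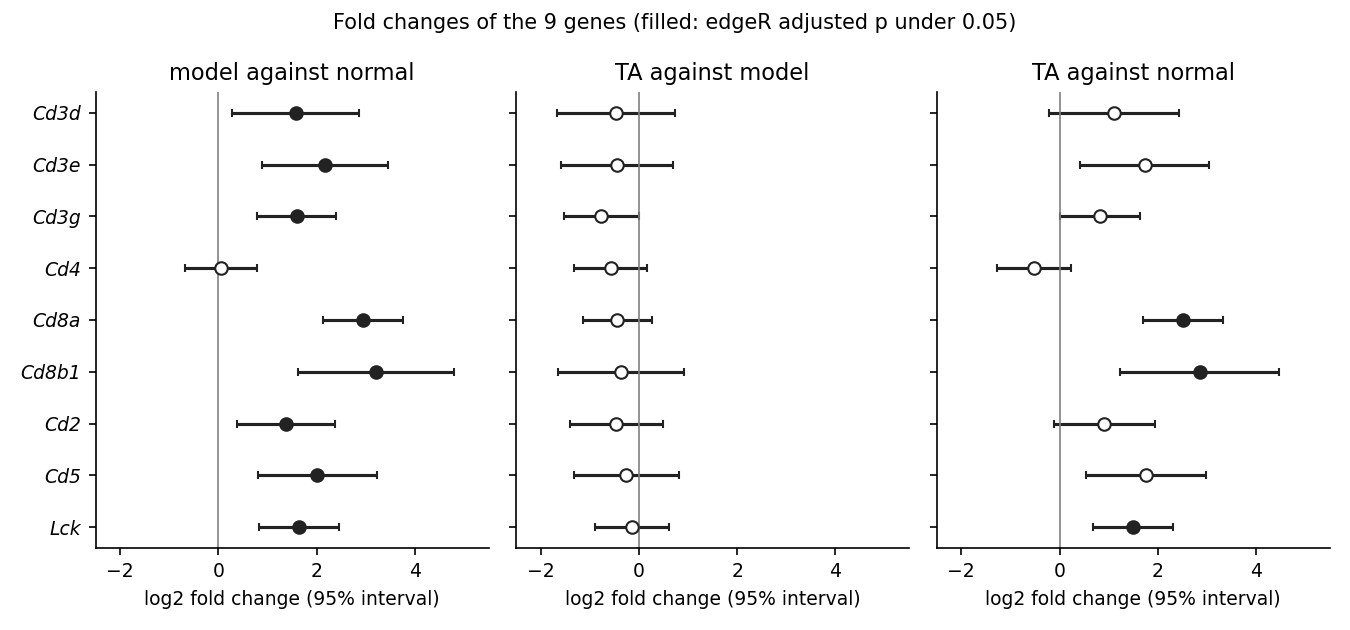
Log2 fold change of each of the 9 genes with its 95% interval in the 3 comparisons, where filled points have an edgeR adjusted p under 0.05. In model against normal 8 of 9 points are filled, in TA against model none, and in TA against normal the 3 of Cd8a, Cd8b1 and Lck.

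Per length, the order of the genes changed with the diet. In the normal group Cd4 stood first at 0.963 ± 0.209 CPM per kb (SD, n = 3), followed by Lck at 0.624 ± 0.322 and Cd2 at 0.578 ± 0.338, and Cd5 was last at 0.0926 ± 0.0731. Cd8a was sixth at 0.283 ± 0.130 CPM per kb. In the model group Cd8a stood first at 2.17 ± 0.69 CPM per kb, Lck followed at 1.93 ± 0.21 and Cd8b1 at 1.87 ± 0.33, while Cd4 was seventh at 0.994 ± 0.341. In the TA group Lck stood first at 1.75 ± 0.49 CPM per kb and Cd8a next at 1.60 ± 0.16, with Cd4 again seventh at 0.672 ± 0.132. Most neighbours in these orders overlapped between libraries: the pairs that did not were Cd2 above Cd3d in the model group and Cd4 above Cd3e in the TA group.

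The balance of coreceptors was also read within each library, as a ratio of counts per length that no scaling can move. To each gene 1 count was added before genes were summed. The log2 ratio of CD8 (Cd8a and Cd8b1) to Cd4 was -1.02, -0.27 and -1.86 in the normal libraries, 1.54, 2.57 and 2.11 in the model libraries and 2.46, 2.37 and 1.71 in the TA libraries. Cd4 thus led in all 3 normal libraries and CD8 in all 6 libraries on the diet. The model and normal means differed by 3.12 on the log2 scale, or 8.69-fold, without overlap (exact two-sided permutation test, p = 0.1, adjusted over 18 ratio tests 0.3). With 3 libraries against 3 that test cannot go below 0.1, so no ratio could pass 0.05.

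Each coreceptor was also set against the CD3 genes. The log2 ratio of CD8 to CD3 averaged -1.14 ± 0.57 in the normal group and 0.24 ± 0.35 in the model group (SD, n = 3), and that of Cd4 to CD3 averaged -0.09 ± 0.73 and -1.83 ± 0.51. Neither pair of groups overlapped, and both exact two-sided permutation tests gave p = 0.1, the smallest they can give (adjusted 0.3). The ratios of Cd2, Cd5 and Lck to CD3 overlapped between these groups, with differences of -0.29, 0.30 and -0.04. The log2 ratio of Cd8a to Cd8b1 was 0.81 ± 1.13 in the normal group and 0.17 ± 0.59 in the model group, also with overlap.

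**Figure D3:**
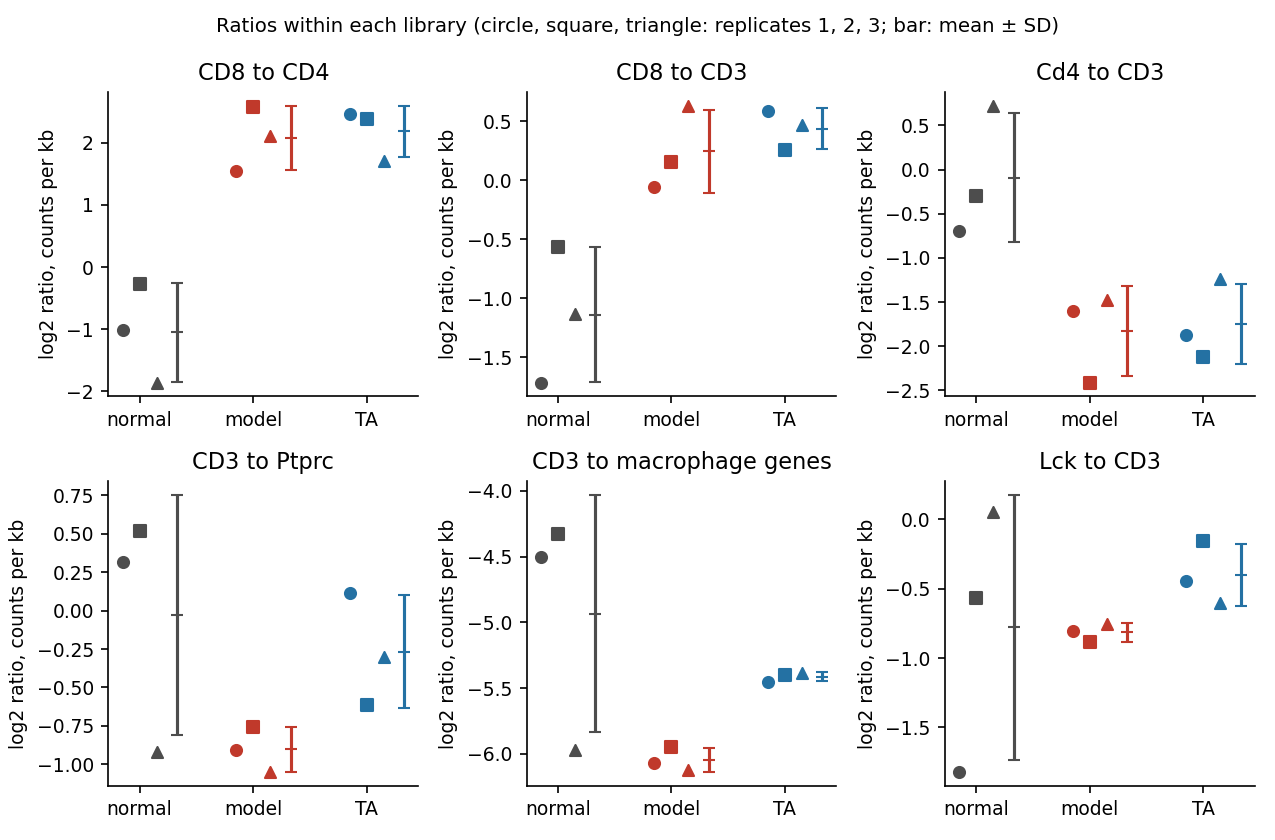
Log2 ratios of counts per kb within each library, by group, with mean and SD (n = 3) at the right. CD3 is the sum of Cd3d, Cd3e and Cd3g, CD8 the sum of Cd8a and Cd8b1, and the macrophage genes are Cd68, Csf1r and Adgre1. The CD8 to CD4 ratio is below 0 in every normal library and above 1.5 in every library on the diet, and the CD3 to macrophage ratio is higher in the TA libraries than in the model libraries.

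With tormentic acid added to the diet, none of the 9 genes passed the test against the diet alone. All 9 estimates were below 0, from -0.77 for Cd3g to -0.14 for Lck, with a median of -0.44 against -0.014 for all genes, of which 51.0% had an estimate below 0. In this comparison 11.1% of all genes were called lower and 11.8% higher. The count of 0 was the same with DESeq2, with limma-voom and in the authors' deposited table, while 1 gene, Cd3g, had an unadjusted edgeR p under 0.05 with a lower level, as had 17.9% of all genes. Scaling by library totals, which puts the median of all genes at -0.59, called 3 of them lower: Cd3g, Cd4 and Cd8a. Under that scaling 5721 of all 13200 genes were called lower. The estimates do not show that the 2 groups are alike, since the intervals below are wide.

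Cd3g came nearest, with 3.21 ± 0.27 CPM in the TA group against 5.46 ± 0.51 CPM in the model group (SD, n = 3). Its log2 difference was -0.77 (95% interval -1.53 to -0.001, edgeR adjusted p = 0.136). It was the one gene of the 9 whose TA libraries were all below the model libraries, as were those of 20.1% of all genes. Cd8a averaged 5.82 ± 0.58 CPM against 7.90 ± 2.53 CPM, and its interval of -1.14 to 0.26 (log2) allows anything from a 0.454-fold level to a 1.19-fold one. For Lck, at 5.12 ± 1.44 against 5.66 ± 0.62 CPM, the interval was -0.89 to 0.61. The direction was not fixed for Lck and Cd5: the estimate for Lck was 0.04 without TA replicate 3 and that for Cd5 was 0.01 without model replicate 2. Cd4 averaged 2.71 ± 0.53 CPM in the TA group against 4.01 ± 1.38 CPM in the model group, a log2 difference of -0.57 (edgeR adjusted p = 0.245).

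The coreceptor ratio differed by 0.11 between these groups, at 2.18 ± 0.41 in the TA group and 2.07 ± 0.51 in the model group (log2 CD8 to CD4, SD, n = 3, exact two-sided permutation p = 0.8). The log2 ratio of CD3 to Ptprc, the pan-leukocyte phosphatase CD45, was 0.12, -0.62 and -0.30 in the TA libraries and -0.90, -0.75 and -1.05 in the model libraries. That of CD3 to the macrophage genes Cd68, Csf1r and Adgre1 was -5.45, -5.40 and -5.38 in the TA libraries and -6.07, -5.95 and -6.12 in the model libraries. Both were higher in every TA library, by 0.63 and 0.64 on the log2 scale. Lck to CD3 was higher in every TA library too, by 0.41. Each of these 3 ratios gave p = 0.1 in the exact two-sided permutation test, the smallest it can give (adjusted 0.3).

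Against the normal group, 3 of the 9 genes were called higher in the TA group, where 10.7% of all genes were called higher and 5.03% lower. Cd8a was 5.69-fold higher (log2 2.51 ± 0.37, edgeR adjusted p = 0.00122), Cd8b1 7.22-fold (2.85 ± 0.74, adjusted p = 0.0232) and Lck 2.82-fold (1.497 ± 0.37, adjusted p = 0.0192). Cd5 and Cd3e did not pass, with log2 differences of 1.76 and 1.73 and edgeR adjusted p of 0.0543 and 0.0726. Both were called with the DESeq2 test and without normal replicate 2, and Cd5 also with library totals and with the strict filter. Cd4 had a log2 difference of -0.52 (edgeR adjusted p = 0.337), although its TA libraries were all below the normal ones, as were those of 16.1% of all genes. For 6 of the other 8 genes all TA libraries were above the normal ones, an order shown by 20.1% of all genes. Of the 3 calls, that of Cd8a alone held in all 17 other ways of processing. That of Cd8b1 was lost without normal replicate 1, normal replicate 3 or TA replicate 1 (edgeR adjusted p of 0.086, 0.0525 and 0.0566), and its log2 change was 4.72 without normal replicate 2 and 2.25 without normal replicate 3. That of Lck was lost without normal replicate 1, normal replicate 3 or TA replicate 2 (edgeR adjusted p of 0.0719, 0.0819 and 0.0706). Without normal replicate 1 or normal replicate 3 the count was 1, and without normal replicate 2, as with DESeq2, it was 5. Model against normal and TA against normal share the normal libraries, and TA against model shares the model libraries with the first, so the 3 sets of values are not independent.

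The genes lie partly side by side in the genome (GENCODE M21, GRCm38). On chromosome 9, Cd3g (44969572 to 44980431, minus strand) and Cd3d (44981786 to 44987339, plus strand) run away from each other with 1354 bases between them, and Cd3e (44998740 to 45009627, minus strand) follows 11400 bases further on. On chromosome 6, Cd8b1 (71322788 to 71337494, plus strand) lies 35932 bases before Cd8a (71373427 to 71379173, plus strand), and Cd4 is far from both (124864692 to 124888221, minus strand). Cd2 is on chromosome 3 (101275899 to 101287939, minus strand), Cd5 on chromosome 19 (10717116 to 10739002, minus strand) and Lck on chromosome 4 (129548344 to 129573641, minus strand), where it holds the microRNA gene Mir8119.

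RefSeq promoter windows (GRCm38.p6, the 250 bases before a gene's start) were matched for 6 of the 9 genes. They are shown for the 3 CD3 genes, which rose together from neighbouring positions, and for Cd8a, the gene with the lowest p on the diet. They run 5′ to 3′ on the gene's strand, and capitals mark ETS core letters (GGAAG or CTTCC) and E-box letters (CANNTG).
Cd3g, chr9:44980432-44980681, minus strand: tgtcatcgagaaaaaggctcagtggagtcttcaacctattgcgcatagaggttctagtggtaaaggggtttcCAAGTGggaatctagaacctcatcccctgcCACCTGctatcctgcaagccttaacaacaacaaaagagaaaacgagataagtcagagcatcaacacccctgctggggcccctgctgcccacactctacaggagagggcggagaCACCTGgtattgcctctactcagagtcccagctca
Cd3d, chr9:44981536-44981785, plus strand: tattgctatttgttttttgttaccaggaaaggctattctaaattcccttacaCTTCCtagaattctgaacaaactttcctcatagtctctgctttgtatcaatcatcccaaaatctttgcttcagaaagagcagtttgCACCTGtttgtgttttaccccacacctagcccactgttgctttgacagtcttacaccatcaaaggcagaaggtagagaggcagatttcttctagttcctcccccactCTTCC
Cd3e, chr9:45009612-45009861, minus strand: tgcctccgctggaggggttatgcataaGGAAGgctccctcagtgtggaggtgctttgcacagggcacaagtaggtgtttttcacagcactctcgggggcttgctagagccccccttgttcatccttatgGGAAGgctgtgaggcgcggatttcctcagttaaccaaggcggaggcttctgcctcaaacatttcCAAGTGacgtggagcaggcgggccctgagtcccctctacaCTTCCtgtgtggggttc
Cd8a, chr6:71373177-71373426, plus strand: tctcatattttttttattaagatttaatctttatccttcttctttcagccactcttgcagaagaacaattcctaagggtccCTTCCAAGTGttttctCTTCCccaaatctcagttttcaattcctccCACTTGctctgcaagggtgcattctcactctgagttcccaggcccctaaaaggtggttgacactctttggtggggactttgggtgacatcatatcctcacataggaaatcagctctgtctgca

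The ETS letters, searched on both strands, occurred 2 times in the Cd3d window, 3 times in that of Cd3e, 2 times in that of Cd8a and not in that of Cd3g. E-box letters occurred 3 times in the Cd3g window, 1 time each in those of Cd3d and Cd3e and 2 times in that of Cd8a, where the first E-box shares its first base with an ETS match. Of 32544 promoter windows of the same length, 64.1% held the ETS letters and 66.2% the E-box letters. These matches describe letters and not binding sites. The letters TGTGGT of RUNX factors (13.96% of all windows) and TATAAA (12.3%) were in none of the 4 windows shown. A matched window of Lck, not shown, held TGTGGT 1 time, 58 to 53 bases before the start. AGATAA of GATA factors (9.97%) was once in the window of Cd3g, and CTTTGA of TCF and LEF factors (13.9%) was there 2 times in that of Cd3d.

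Downstream of the receptor, 16 of 22 tested genes of proximal T cell receptor signalling rose on the diet and 1, Plcg1, fell. Fyb, an adaptor of integrin activation, went from 6.65 ± 1.07 to 50.2 ± 6.8 CPM (SD, n = 3, log2 2.91, edgeR adjusted p = 3.12e-06). Vav1, an exchange factor for Rac, went from 4.17 ± 0.91 to 35.9 ± 7.6 CPM. Ptprc went from 19.2 ± 1.5 to 117.5 ± 14.6 CPM. These 3 genes are expressed in other leukocytes too. Plcg1, a phospholipase used by many cell types, fell by 0.56 on the log2 scale (edgeR adjusted p = 0.0207). This call did not survive leaving out model replicate 1 (adjusted p = 0.0764), model replicate 3 (0.0779) or normal replicate 3 (0.0891), and Plcg1 was 0.115 higher with library totals (adjusted p = 0.639). Zap70, the kinase that docks on phosphorylated CD3 and zeta chains, had a log2 difference of -0.16 (edgeR adjusted p = 0.745) and was named after its values were seen. The zeta chain gene Cd247 had 18 counts over the normal group and 75 over the model group, a log2 difference of 1.29 that did not pass (edgeR adjusted p = 0.113). The other 10 listed chains were not found under their listed names among the genes counted, so they could not be analysed.

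Tormentic acid was accompanied by lower levels of 7 of these 22 signalling genes against the diet alone, among them Lcp2, Fyn, Ptprc, Vav1, Rasgrp1 and Fyb. Lcp2, the adaptor SLP-76, went from 36.5 ± 5.9 to 14.5 ± 3.8 CPM (SD, n = 3, log2 -1.34, edgeR adjusted p = 0.0029), and Fyb from 50.2 ± 6.8 to 20.6 ± 5.5 CPM (log2 -1.29, adjusted p = 0.0029). The median log2 difference was -0.70 over the 22 genes and -0.44 over the 9 receptor genes. The count was 12 with library totals, under which 5721 of all 13200 genes were called lower. It was 6 with the 6 libraries alone and 5 to 7 with 1 library left out. The call of Fyn was lost with the 6 libraries alone and without model replicate 1, model replicate 3, TA replicate 1 or TA replicate 3 (adjusted p of up to 0.111), and that of Rasgrp1 without model replicate 1, TA replicate 2 or TA replicate 3 (up to 0.119). Whether the members differ from the signalling genes in this was not tested. Against the normal group 11 of the 22 were called higher in the TA group.

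**Figure D4:**
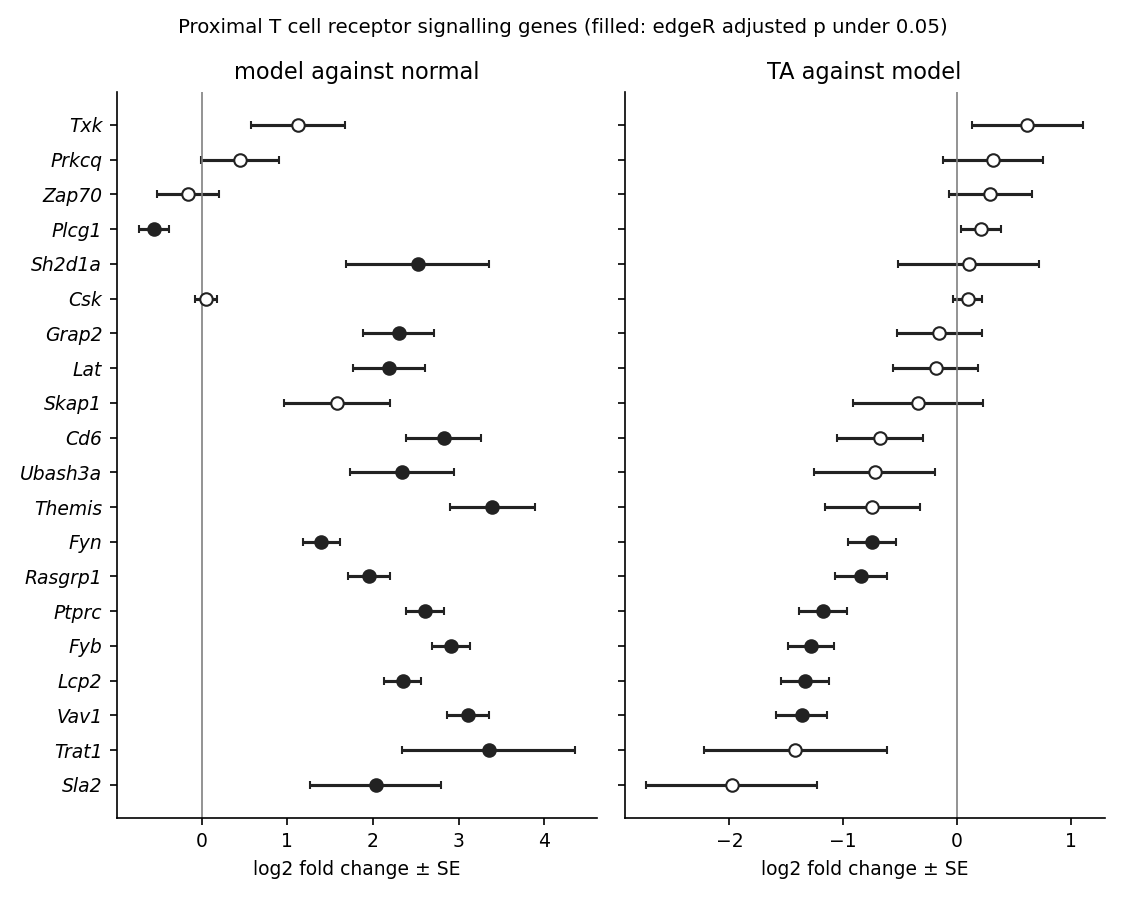
Log2 fold change with its SE for 20 of the 22 tested genes of proximal T cell receptor signalling, in model against normal (left) and TA against model (right), where filled points have an edgeR adjusted p under 0.05. Ordered by the right panel, the 6 plotted genes called lower with tormentic acid run from Fyn at -0.75 to Vav1 at -1.37.

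Other genes of T cells also rose on the diet. Of 12 tested costimulatory and inhibitory receptors 9 rose, none fell and none was called with tormentic acid, where library totals called 6 lower. That scaling also called 5721 of all 13200 genes lower with tormentic acid. Pdcd1, the inhibitory receptor PD-1, went from 0.244 ± 0.234 to 2.02 ± 0.96 CPM (SD, n = 3, log2 3.06, edgeR adjusted p = 0.00435), with a log2 change of 4.09 without normal replicate 2. Icos, a costimulator, went from 0.773 ± 0.035 to 2.46 ± 0.44 CPM. Tigit had 2 counts over the normal group and 145 over the model group, a ratio of scaled counts of 43.9 with an exact 95% counting interval of 11.9 to 366. Tnfrsf9 had 1 and 79 counts, a ratio of 47.8 with an interval of 8.33 to 1911.

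Of 11 survival and trafficking receptors 9 rose and 1 fell on the diet. Il7r, the receptor for the survival cytokine IL-7, went from 1.54 ± 1.01 to 21.1 ± 3.1 CPM (SD, n = 3, log2 3.79, edgeR adjusted p = 1.15e-05), and its log2 change was 4.39 without normal replicate 2. With tormentic acid 1 gene of this list fell and none was called higher. S1pr1, which guides lymphocyte exit and is also abundant in endothelium, fell from 79.2 ± 14.8 to 36.1 ± 9.1 CPM on the diet (log2 -1.13, edgeR adjusted p = 0.00121). This call was lost with library totals (log2 -0.46, edgeR adjusted p = 0.053), under which no gene of the list was called lower on the diet. With tormentic acid 7 were then called lower, as were 5721 of all 13200 genes.

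Of 14 tested transcription factors 7 rose and 3 fell on the diet, and with library totals 10 were called higher and 1 lower. Of all 13200 genes, that scaling called 7269 higher and 831 lower on the diet. Runx3, which in T cells keeps the CD8 fate and silences Cd4, went from 0.792 ± 0.355 to 4.77 ± 2.02 CPM (SD, n = 3, log2 2.60, edgeR adjusted p = 0.000821). Ikzf1 and Ets1, factors of lymphoid and other blood cells, rose by 2.42 and 1.27 and were called lower with tormentic acid, by -1.40 and -0.89 (log2). Of 5 listed genes of T cell development, Rag2 and Ptcra had 0 counts in all 9 libraries, and Rag1 had at most 1 count in any group. The other 2, Dntt and Cd1d1, passed the filter. Cd1d1 fell on the diet (log2 -1.11, edgeR adjusted p = 0.00349), and Dntt was not called. With library totals 1 of these 2 genes was called higher on the diet and 0 lower.

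Markers of macrophages, dendritic cells, NK cells and neutrophils mostly rose on the diet, as the receptor genes did. All 12 macrophage and monocyte markers rose on the diet, their summed level going from 412 to 442 CPM in the normal libraries to 2317 to 2822 CPM in the model libraries, and 9 of the 12 fell with tormentic acid, to a sum of 1074 to 1444 CPM. Dendritic cell markers rose in 11 of 12 cases, with sums of 27.6 to 32.2 CPM in the normal libraries, 118 to 199 CPM in the model libraries and 67.4 to 85.4 CPM in the TA libraries, and 3 fell with tormentic acid. NK cell markers rose in 5 of 7 tested cases, with sums of 3.48 to 5.197, 14.6 to 23.4 and 7.31 to 14.2 CPM in those groups. Neutrophil markers rose in 5 of 5 tested cases, with sums of 4.67 to 24.2, 35.8 to 90.2 and 19.5 to 32.3 CPM, and 1 fell with tormentic acid. None of these lists had a marker at 0 in every library. The NK cell markers called lower with tormentic acid were 0. With library totals, 11 macrophage and monocyte, 9 dendritic cell, 3 NK cell and 4 neutrophil markers were called lower with tormentic acid. So were 5721 of all 13200 genes. On the diet 12, 12, 6 and 5 were then called higher, as were 7269 of all 13200 genes.

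B and plasma cell markers rose in 2 of 10 tested cases, Cd22 and Cd79b, with sums of 10.4 to 59.1 CPM in the normal, 35.9 to 48.9 CPM in the model and 30.4 to 52.2 CPM in the TA libraries. The call of Cd79b was lost without normal replicate 1, normal replicate 2, model replicate 1 or model replicate 3 (edgeR adjusted p of up to 0.0826). Of 5 Kupffer cell markers 2 rose and 1 fell on the diet and 3 fell with tormentic acid, with sums of 323 to 359, 792 to 1302 and 130.3 to 616 CPM. Hepatocyte markers fell in 9 of 10 cases on the diet and 7 were called higher with tormentic acid, with sums of 134322 to 163528, 52493 to 89975 and 121162 to 152737 CPM. With library totals these counts were 4 and 0 on the diet and 3 with tormentic acid for the Kupffer cell markers, and 6 and 3 for the hepatocyte markers. The part of these shifts in the levels of the 9 genes was not tested. Within the libraries, the log2 ratio of CD3 to the macrophage genes was -4.93 ± 0.90 in the normal group and -6.05 ± 0.09 in the model group (SD, n = 3), with overlap through normal replicate 3 at -5.97.

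The genes whose profile over the 9 libraries was nearest to the mean of the 9 genes were Slc1a5, Cd96, Lgals1, Ifi27l2a, Plac8, Spn, Cd37 and Thy1. Nearness was the root mean square difference of log2 CPM after each profile was centred on its own mean, and ran from 0.17 for Slc1a5 to 0.23 for Thy1. Among the members themselves Cd3g (0.23), Cd2 (0.24) and Cd5 (0.28) were nearest to that mean and Cd8a (0.53), Cd3d (0.55), Cd8b1 (0.78) and Cd4 (0.95) farthest. Spn, Cd37 and Thy1 encode leukocyte surface proteins, Cd96 a receptor of T and NK cells, Slc1a5 a glutamine carrier and Lgals1 a galectin.

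**Figure D5:**
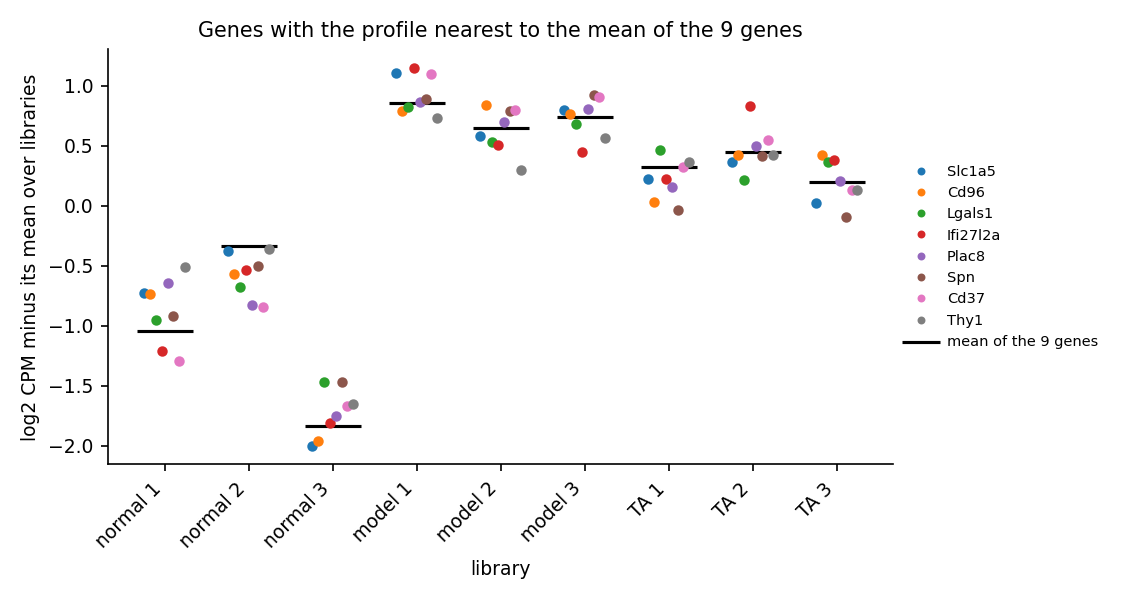
Log2 CPM minus its mean over the 9 libraries for the 8 genes nearest in profile (points) and for the mean of the 9 receptor genes (black bars), by library. The mean of the 9 genes is -1.83 in normal replicate 3, 0.65 to 0.86 in the model libraries and 0.20 to 0.45 in the TA libraries.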

How the data were processed

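Liver RNA of 9 libraries was studied, in groups taken from the labels. Per the labels' protocols, Trizol served for extraction and an NEBNext Ultra kit for library preparation. The submitters' processing notes name mm9. The aligner, the counter and the use of strand are not given in the sources used here. Raw read counts of 21898 genes, deposited in 1 table with 1 emptied line, entered all tests. The authors' FPKM values equalled these counts scaled by gene length and total within 3.54 ppm and served no other purpose. From the comparison tables that the authors deposited, p-values were used only for their calls at an adjusted p under 0.05. The listed coordinates belong to a build that was not settled, so those printed are GENCODE M21 on GRCm38, and listed lengths were used for values per kb.

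Counts were analysed with edgeR 4.0.16 in R 4.3.3. Genes were kept by filterByExpr (minimum count 10, minimum total 15), which left 13200. TMM factors were used, and 1 quasi-likelihood model with group as its factor was fitted to all 9 libraries. P-values were adjusted by Benjamini-Hochberg over all genes tested, and rose and fell are used of genes called at 0.05. Every adjusted p of a gene is from edgeR unless another tool is named. SE and 95% intervals come from that model. Ratios were compared with exact two-sided permutation tests (SciPy 1.17.1). Alternatives were DESeq2 1.42.0 size factors and test, library totals, no filter, a strict filter (10 counts in all libraries of some group), limma 3.58.1 voom, a replicate block, only the 6 libraries compared, and each library left out. Scripts were tested on simulated data.

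Named genes were the 9 members, up to 4 called genes a list with the smallest p on the diet and 2 with tormentic acid, 1 in the opposite direction, and the 8 nearest profiles, except where said. Some genes that this rule takes are not reported here, though they remain in the counts of their lists. The members and lists were chosen with earlier results of these data known. Replicates of a group differed beyond sampling noise (chi-square per degree of freedom 29.3 to 137), so no library was a copy. Intervals on counts cover counting error only.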

Additional observations from a re-analysis of the deposited data

How the results depend on the processing

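The 8 calls of model against normal stayed at 8 under each alternative other than leaving out a library, where the count ran from 6 to 8 through Cd3d and Cd2. With library totals, TA against model called 3 of the 9 genes, 12 signalling genes and 6122 of all genes (0, 7 and 3031 with TMM), and Cd247 was called for the diet (1 of 1), as it was without normal replicate 2. TA against normal called 5 of the 9 with the DESeq2 test. Leaving out 1 library gave 1 to 5 of the 9 genes and 1092 to 2467 of all genes for TA against normal, 1436 to 3793 of all genes for TA against model, and 0 to 1 for Cd247 on the diet. For TA against model the low counts were 1444 without model replicate 1, 1436 without model replicate 3 and 1651 without TA replicate 3, and for TA against normal 1332 and 1092 without normal replicates 1 and 3. The cause of these shifts was not tested.

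Leaving out 1 library, the log2 ratio difference of TA against model ran from -0.157 to 0.355 for CD8 to CD4, from -0.369 to 0.163 for Cd8a to Cd8b1 and from -0.205 to 0.275 for Cd4 to CD3, and that of Lck to CD3 on the diet from -0.557 to 0.379. The latter was 0.0154 with 2 counts added in place of 1. CD8 to CD4 on the diet ran from 2.71 to 3.51, and CD3 to macrophage genes with tormentic acid from 0.597 to 0.684. Log2 changes of single genes that turned in sign were those of Cd4 on the diet (-0.031 and -0.0543 without normal replicates 1 and 3, -0.142 and -0.0464 without model replicates 1 and 3, up to 0.297 without another), and, for TA against model, Cd5 (0.00616 without model replicate 2, otherwise down to -0.377), Lck (0.0406 without TA replicate 3, otherwise down to -0.360) and Ifi27l2a (0.0196 without model replicate 1, otherwise down to -0.437). With library totals Plcg1 was at 0.115 on the diet and -0.331 with tormentic acid, S1pr1 at -0.143 and Timd4 at -0.0376 with tormentic acid. Timd4 was also at -0.399 with voom, and from -0.418 to 1.14 with 1 library left out. For TA against normal, leaving out 1 library gave -0.179 to 0.745 for Cd5l, -0.816 to 0.224 for Vsig4 and -0.248 to 0.0367 for Ttr.

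A replicate block left 8, 0 and 3 of the 9 genes called in model against normal, TA against model and TA against normal, and 5711, 2294 and 1575 of all genes. No label says what a replicate number marks. Deviations of same-numbered libraries correlated at -0.202 to 0.115, over 0.1 in 1 of 9 pairs. A pair with unlike numbers, model replicate 3 and TA replicate 1, reached 0.344. With 3 libraries a group, these values cannot settle whether same-numbered libraries share more than a number. Normal libraries hold 0 to 57 counts of a member, which limits the precision of every fold against them.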
